A study of Bos taurus with 4 samples.

Results

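The genes described here were read in a single grain-fed muscle library and in none of the other 3 libraries of the series. They were selected on the deposited values themselves. A gene was taken when its value was at least 25 in either Grain1 or Grain2, under 0.5 in the other grain-fed library and under 0.5 in both Grass1 and Grass2. Of the 24616 Ensembl genes in the file, 74 met this rule, 32 in Grain1 (the Grain1-only genes) and 42 in Grain2 (the Grain2-only genes). Since the rule used the values of all 4 libraries, the levels below are a description of the members, and the tests between diets over all genes, which include them, are given at the end without support being drawn from them.

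The samples were longissimus dorsi, the long back muscle, of Aberdeen Angus steers from the closed Wye Angus herd. After weaning, the 2 grain-fed steers received corn silage, shelled corn, soybean and trace minerals. The 2 grass-fed steers received grazed alfalfa or grass and, in winter, conserved forage, with no grain; all 4 had the same diet until weaning. The ages of the steers are not given in the labels, and the study states that grass-fed animals took longer to reach slaughter weight, so diet and age at slaughter cannot be told apart. Each column names a diet and a number but not an animal, so Grain1 and Grain2 are used here as the 2 libraries of the grain-fed group without linking either to a steer, and with 2 libraries a diet a two-sided exact permutation test could not give a p-value under 0.333.

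The deposited values are edgeR pseudo-counts, read counts adjusted by the authors to 1 common library size. Undoing this adjustment gave a whole number of reads for 100% of the genes that had any, and these recovered reads are given below beside the deposited values. Despite the adjustment, the deposited columns did not share 1 total. They summed to 7442724 in Grain1, 9036668 in Grain2, 5174023 in Grass1 and 5383552 in Grass2. The TMM scale factors of edgeR were 0.884, 0.728, 1.27 and 1.22 in the same order. The limits of the rule were therefore not the same share of the total in each column. Reads on genes came to 5683894 in Grain1, 6530977 in Grain2, 6776619 in Grass1 and 7447453 in Grass2. Reads were found for 11625 and 11201 genes in the grain-fed libraries and for 14485 and 13487 genes in the grass-fed libraries. By reads on genes, the grain-fed libraries were therefore the shallower pair, and they held fewer genes. In reads processed, as listed by the study, they were not the lower pair. Within each diet, the library with more reads on genes held fewer genes.

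Skeletal muscle is built mainly of multinucleate fibres filled with contractile proteins, and a small number of structural and mitochondrial transcripts account for much of its RNA. A piece of muscle also holds connective tissue, fat, vessels, nerve and blood, whose transcripts enter a bulk library at low levels. Bulk RNA-Seq cannot tell fewer cells of a type from less RNA per cell. A gene with few reads can therefore come from a rare cell type as well as from the fibres, and these libraries alone do not separate them.

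In all 74 members the recovered count was 0 in each of the other 3 libraries. The small positive values that remained in the file for the other grain-fed library, from 0.136 to 0.157 for Grain1-only genes and from 0.111 to 0.127 for Grain2-only genes, were left by the adjustment and not by reads. In the grass-fed columns a gene without reads in either library is listed at 1.39e-17. Levels are given as RPM, reads per 1000000 reads on genes of the same library. A count of 0 allows up to 3 reads, which is 0.528 RPM in Grain1, 0.459 in Grain2, 0.443 in Grass1 and 0.403 in Grass2. These limits, and the intervals below, cover counting error only, because reads amplified by PCR are not independent molecules.

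The Grain1-only genes had between 20 and 331 reads in Grain1, with a median of 70.5, and 11 of the 32 had at least 100 reads. The Grain2-only genes had between 19 and 485 reads in Grain2, with a median of 49.0, and 11 of the 42 had at least 100 reads. On both sides a few genes carried much of the signal. The 3 highest members held 27.1% of the 3049 reads of the Grain1-only genes and 26.0% of the 3586 reads of the Grain2-only genes. Members with under 50 reads numbered 11 in Grain1 and 21 in Grain2, so Grain2 had the longer tail of low members. Both sets were a small part of their library, at 0.0536% of the reads on genes in Grain1 and 0.0549% in Grain2.

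**Figure D1:**
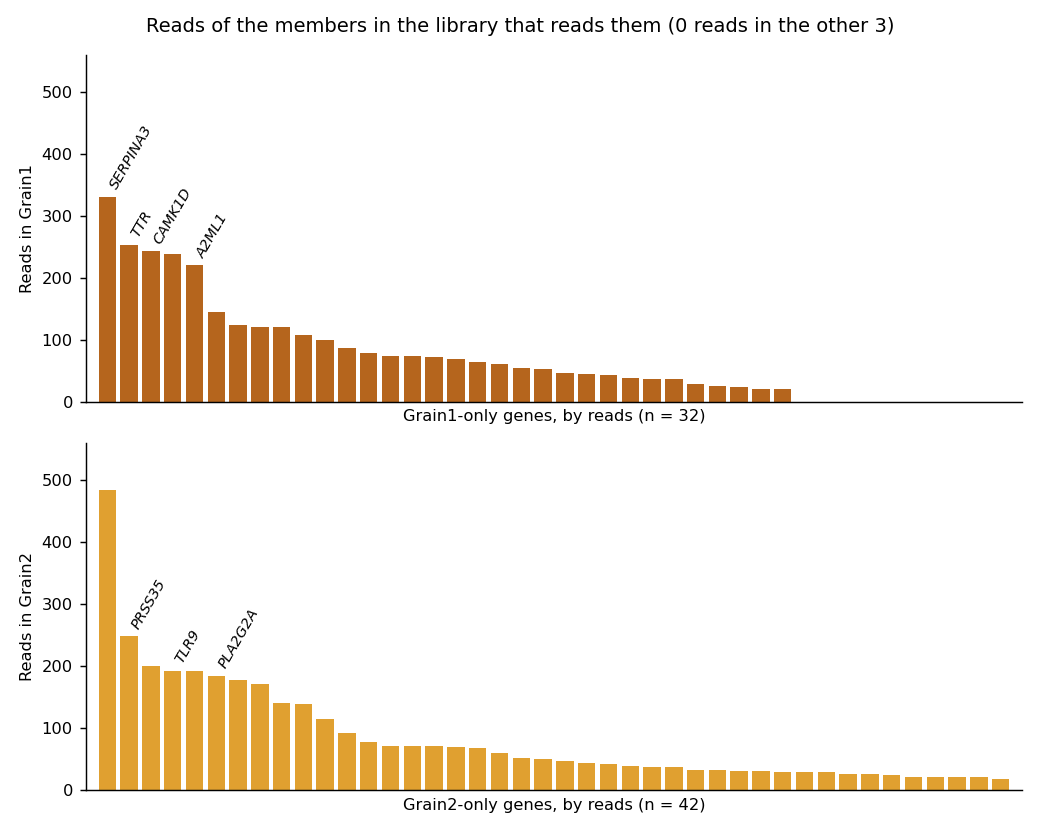
Each bar is the number of recovered reads (linear axis from 0) of 1 member in the library that reads it, Grain1-only genes above (n = 32) and Grain2-only genes below (n = 42), ordered by reads, with the symbol where one is known. The highest bar is 331 reads in Grain1 and 485 reads in Grain2, and both sets fall off to about 20 reads, where the limit of the rule lies.

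The place of the members among the genes of their own library, by reads not divided by gene length, is bounded from below by the limit of 25 in the rule. The median Grain1-only gene had more reads than 68.7% of the genes read in Grain1 (range over members 46.0% to 89.7%). The median Grain2-only gene had more reads than 61.0% of those read in Grain2 (range 42.7% to 93.6%). The median gene with reads had 25 reads in Grain1 and 28 in Grain2. Against 3 reads summed over the other 3 libraries, the lowest Grain1-only gene was at least 24.3-fold higher per read on genes and the highest at least 403-fold higher. For the Grain2-only genes these bounds ran from at least 19.3-fold to at least 493-fold.

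Symbols were available for 7 members, 4 in Grain1 and 3 in Grain2. The other 28 Grain1-only and 39 Grain2-only genes carry an Ensembl identifier that is not paired with a name in the tables used here. The 7 symbols come from the study's own list of its strongest changes, which was drawn up on these same libraries, so they are among the highest members by construction and do not show what kind of gene the sets hold. Each of the 7 was joined to its identifier by the log ratio printed there, so these pairings are inferred. All values that follow are recovered reads unless stated otherwise.

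SERPINA3 (ENSBTAG00000046540), which encodes alpha-1-antichymotrypsin, a secreted inhibitor of serine proteases and an acute phase protein of the liver, was the highest Grain1-only gene. It had 331 reads in Grain1 and 0 in Grain2, Grass1 and Grass2, with a deposited value of 433 in Grain1. This was 58.2 RPM (95% exact Clopper-Pearson interval 52.1 to 64.9), at least 403-fold above the other 3 libraries together. TTR (ENSBTAG00000010991) encodes transthyretin, the carrier of thyroxine and of retinol-binding protein in plasma, made chiefly by the liver and the choroid plexus. TTR had 253 reads in Grain1 and 0 in the other 3 libraries, or 44.5 RPM (interval 39.2 to 50.3).

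CAMK1D (ENSBTAG00000008650), a kinase activated by calcium and calmodulin, had 243 reads in Grain1 and none in Grain2, Grass1 or Grass2. A2ML1 (ENSBTAG00000004097), a protease inhibitor related to alpha-2-macroglobulin and known from keratinocytes, had 220 reads in Grain1 and none in the other 3 libraries. These were 42.8 (interval 37.5 to 48.5) and 38.7 (interval 33.8 to 44.2) RPM, at least 296-fold and at least 268-fold above the other 3 libraries together. Among the members without a symbol, ENSBTAG00000045836 stood between CAMK1D and A2ML1 with 239 reads in Grain1, and ENSBTAG00000019423 followed with 144. After A2ML1 the counts dropped, so the 5 highest Grain1-only genes, all at 220 reads or more, stood apart from the rest of the set.

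The highest Grain2-only gene, ENSBTAG00000033365, has no symbol here. It had 485 reads in Grain2 and 0 in Grain1, Grass1 and Grass2, a deposited value of 671 in Grain2, and 74.3 RPM (interval 67.8 to 81.2), the most reads of any of the 74 members. PRSS35 (ENSBTAG00000026708), a secreted protein of the serine protease family, had 249 reads in Grain2 and 0 in the other 3 libraries, or 38.1 RPM (interval 33.5 to 43.2). It was followed by ENSBTAG00000045808, without a symbol, which had 200 reads in Grain2. The step in reads from the highest member to the next was thus wider than at the top of the Grain1-only genes.

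TLR9 (ENSBTAG00000018198), the endosomal receptor for unmethylated CpG DNA found in plasmacytoid dendritic cells and B cells, had 193 reads in Grain2 and none in Grain1, Grass1 or Grass2. PLA2G2A (ENSBTAG00000013039), a secreted phospholipase A2 that releases fatty acids from phospholipids and rises in inflammation, had 185 reads in Grain2 and none elsewhere. The levels were 29.6 (interval 25.5 to 34.0) and 28.3 (interval 24.4 to 32.7) RPM. TLR9 was at least 196-fold and PLA2G2A at least 188-fold above the other 3 libraries together.

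The symbol SERPINA3 carries an asterisk in the study's list, which was read as text from a PDF and does not explain the mark there, so whether the name belongs to this identifier alone is uncertain. SERPINA3 and PLA2G2A belong to gene families with related copies, so the assignment of their reads is uncertain. How alike the copies are in sequence was not tested. In the RefSeq annotation of ARS-UCD2.0, a later assembly than the one the reads were aligned to, 4 protein-coding genes carry a SERPINA3 symbol, and SERPINA3 lies between SERPINA3-8 and SERPINA3-7. That annotation has 2 neighbouring entries with the synonym PLA2G2A, next to PLA2G5. How reads that match several copies were assigned is not given in the sources used here. TTR lies next to the desmosomal cadherin gene DSG2, and TLR9 lies between TWF2 and ALAS1. The library protocol does not state that strand was kept, so reads from an antisense or overlapping gene could not be separated from those of the named gene.

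Lists of cell type and pathway genes could be read in part only, since identifiers with symbols were at hand for 27 genes of the whole file. Of the 19 lists, 10 had at least 1 gene with an identifier and 8 held a member. The skeletal muscle list had none, so the labelled tissue was not checked against its markers here. The other lists without an identifier were B and plasma cells, monocytes with macrophages and neutrophils, adipocytes, vessel wall, red cells, nerve, exocrine pancreas and kidney.

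On the list of liver plasma proteins, 3 of 52 genes could be read: SERPINA3, TTR and FGB, the fibrinogen beta chain. Their summed reads were 2025 in Grain1, 86 in Grain2, 21 in Grass1 and 0 in Grass2. FGB (ENSBTAG00000022120) is no member, since it had 1441 reads in Grain1, 86 in Grain2, 21 in Grass1 and 0 in Grass2. Grain1 was the highest library for all 3 genes, which the rule fixes for SERPINA3 and TTR and not for FGB, a gene the study picked from these libraries. In RPM, FGB was 19.3-fold higher in Grain1 than in Grain2. SERPINA3 was at least 127-fold and TTR at least 96.9-fold higher in RPM in Grain1 than in Grain2, against 3 reads in Grain2. These ratios leave out the TMM scale factors of edgeR, 0.884 for Grain1 and 0.728 for Grain2, with which they would be lower. The part of liver-derived RNA in the reads of these 3 genes was not tested.

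The keratinocyte list had 2 of 25 genes with an identifier. A2ML1 was read in Grain1 alone, whereas KRT5 (ENSBTAG00000038384), a keratin of the basal layer of stratified epithelia, had 100 reads in Grain1, 189 in Grain2 and 0 in both grass-fed libraries. In RPM, KRT5 was 1.64-fold higher in Grain2 than in Grain1, so the 2 genes of the list were highest in different grain-fed libraries. PRSS35 and PLA2G2A were the 2 of 17 genes of the fibroblast and matrix list that could be read, and both were Grain2-only genes. Each of the remaining lists with a member had 1 gene that could be read, which was the member itself: TTR among 4 choroid plexus genes, CAMK1D among 9 of the calmodulin kinase list, PLA2G2A among 8 group II phospholipases, and TLR9 among 9 dendritic cell genes and among 10 genes of its own pathway. Intestinal epithelium (8 of 20 genes read) and T and natural killer cells (3 of 14) held no member, and had 4 and 0 reads in Grain1 and 0 and 0 in Grain2, against 2197 and 725 in Grass1 and 23 and 12 in Grass2.

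Members were set beside the other genes that were absent from the grass-fed libraries. With a value of at least 25 in Grain1 and under 0.5 in both grass-fed libraries there were 41 genes. Of these, 32 were under 0.5 in Grain2 (the Grain1-only genes), 7 lay between 0.5 and 25, and 2 reached 25. From Grain2 there were 48 such genes, of which 42 were under 0.5 in Grain1, 4 lay between the limits and 2 reached 25. The 2 genes at 25 or more in both were KRT5 and CA12 (ENSBTAG00000019390), a carbonic anhydrase, with 71 reads in Grain1 and 112 in Grain2. HELQ (ENSBTAG00000018151), a DNA helicase, missed the rule by 3 reads in Grain1 against 203 in Grain2. Most genes at this level without grass-fed reads were therefore found in a single grain-fed library, which is what the rule selects.

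**Figure D2:**
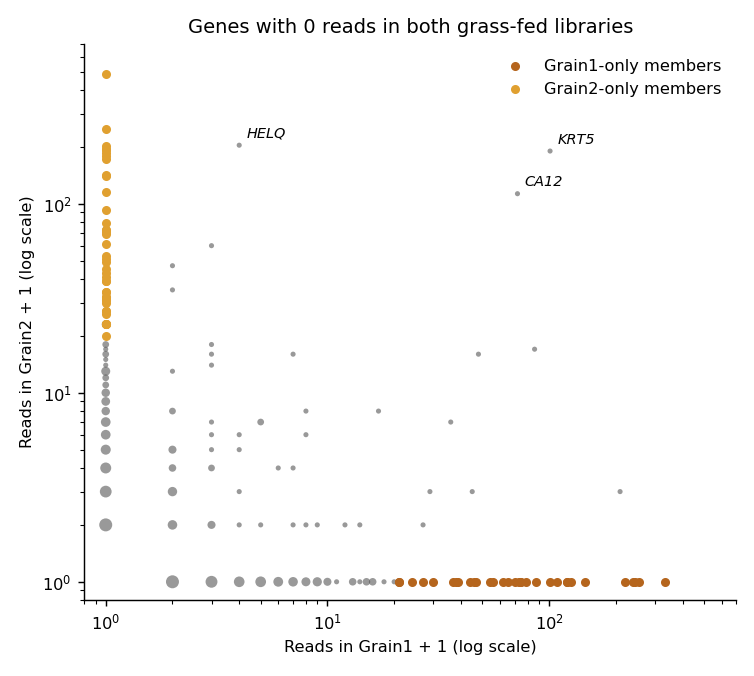
Recovered reads + 1 in Grain1 (x, log scale) and Grain2 (y, log scale) for the 769 genes with 0 reads in both grass-fed libraries and at least 1 read on grain; larger grey points stand for more genes, and coloured points are the members. Members lie on the axes by the rule, 72 of the 769 genes have reads in both libraries, and KRT5 and CA12 are alone in the upper right.

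Of 769 genes with reads on grain and 0 reads in both grass-fed libraries, 346 were read in Grain1 alone, 351 in Grain2 alone and 72 in both. A gene with 1 read can be in 1 library at most, and with 2 or more reads asked for there were 190 genes in Grain1 alone and 194 in Grain2 alone. At the limit of the rule, the lowest Grain1-only genes had values of 26.0, 26.0 and 29.9, which are 20, 20 and 23 reads. Just outside were genes at 24.7, 22.1 and 19.4, or 19, 17 and 15 reads. In Grain2 the lowest members had 26.0, 30.2 and 30.2 (19, 22 and 22 reads), and the nearest genes outside had 23.3, 23.3 and 21.9 (17, 17 and 16 reads). No gap in the values separated members from the genes just outside.

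Genes with at least 25 in 1 grain-fed library and under 0.5 in the other were more numerous than the members, and most of them were read on grass. For Grain1, 248 of the 6298 genes with a value of at least 25 (3.94%) were under 0.5 in Grain2. Both grass-fed libraries read 174 of them (70.2%), 1 grass-fed library read 42, and neither read 32 (12.9%), the Grain1-only genes. For Grain2, 227 of 6439 genes (3.53%) were under 0.5 in Grain1: 142 (62.6%) were read in both grass-fed libraries, 43 in 1 and 42 (18.5%) in neither. Among the genes read in 1 grass-fed library it was Grass1 for 32 of 42 and for 34 of 43. The members are thus the minority of the genes missing from a grain-fed library that were missing on grass too.

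The grass-fed pair differed from this. Of 7362 genes with at least 25 in Grass1, 174 (2.36%) were under 0.5 in Grass2, and 12 of these (6.90%) were read in both grain-fed libraries, while 113 (64.9%) were read in neither. In the other direction 7 of 6884 genes (0.102%) were under 0.5 in Grass1, and 6 of the 7 were read in neither grain-fed library. By the rule for members, Grass1 thus had 113 genes of its own and Grass2 had 6, against 32 and 42 on grain. The same value of 25 stood for more reads on grass. The fewest reads of a gene so counted were 33 in Grass1 and 38 in Grass2, against 20 in Grain1 and 19 in Grain2. With at least 25 recovered reads asked for, the counts were 163 in Grass1, 11 in Grass2, 29 in Grain1 and 37 in Grain2. Each grass count rested on the other grass-fed library: Grass1 had 179 such genes without Grass2 in the rule, and Grass2 had 35 without Grass1. The numbers were uneven on grass and closer to each other on grain. The differences between these counts were not tested.

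**Figure D3:**
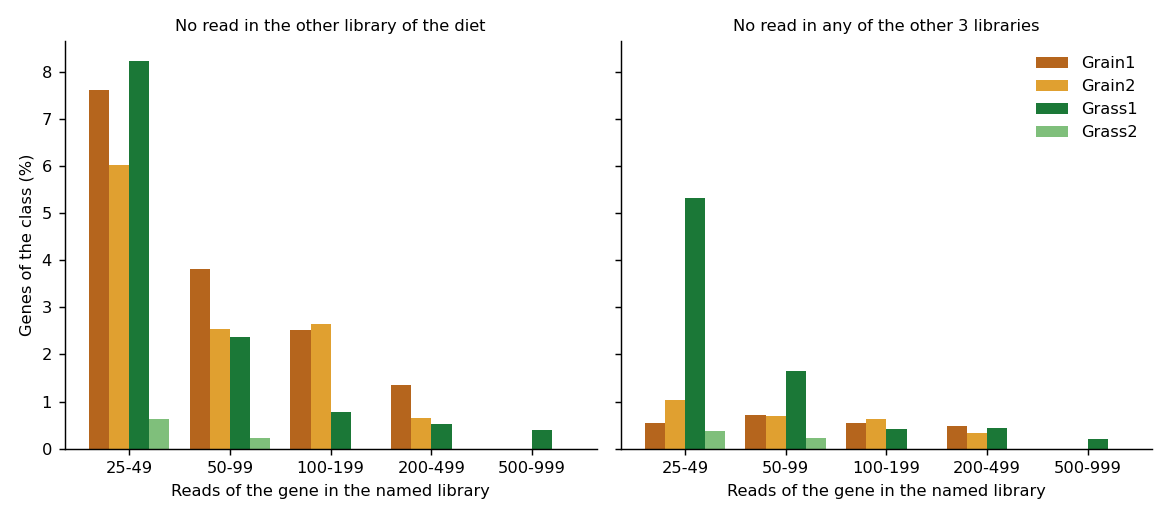
Bars give the percentage of genes of a read class (x axis, recovered reads in the named library) that had 0 reads in the other library of the same diet (left) or in all of the other 3 libraries (right), for the 4 libraries. For Grain1 and Grain2 the left bars are 2.51% or more below 200 reads, while the right bars, which count genes of the kind described here, stay between 0.326% and 1.03% below 500 reads.

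By read class, 7.61% of the 1445 genes with at least 25 and under 50 reads in Grain1 had 0 reads in Grain2, and the share was 3.82% under 100 reads, 2.51% under 200 and 1.35% under 500. In the same classes of Grain2, the shares with 0 reads in Grain1 were 6.01%, 2.55%, 2.65% and 0.652%. The share missing from the other library fell with the reads of the gene in Grain1. The share with 0 reads in all of the other 3 libraries was 0.554%, 0.708%, 0.538% and 0.482% in Grain1, which is 8, 10, 6 and 5 genes, and 1.03%, 0.689%, 0.642% and 0.326% in Grain2, which is 16, 10, 8 and 3 genes. Over the same classes it was 5.31%, 1.64%, 0.419% and 0.442% in Grass1, and 0.372%, 0.22%, 0% and 0% in Grass2, so the grain-fed libraries lay between the grass-fed ones in the lowest 2 classes. Of the genes with at least 500 and under 1000 reads, 0 of 414 in Grain1 and 0 of 352 in Grain2 were missing from the other grain-fed library.

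**Figure D4:**
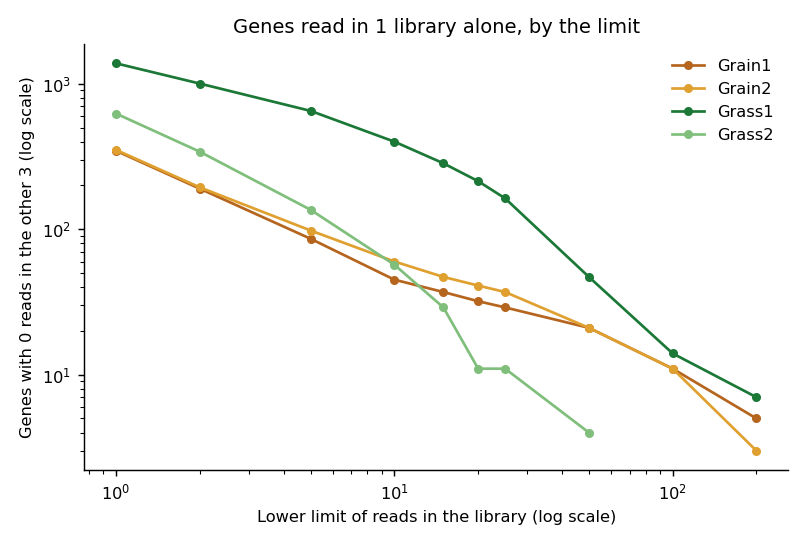
Number of genes with 0 reads in the other 3 libraries (y, log scale) against the lower limit of reads in the named library (x, log scale), 1 line per library; points at 0 genes are not drawn. The grain-fed lines run close together from 346 and 351 genes at 1 read to 11 and 11 at 100 reads, below Grass1 throughout and above Grass2 from 15 reads on.

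How many genes were read in a single library depended on the limit. At 1 read or more, Grain1 alone had 346 genes, Grain2 351, Grass1 1382 and Grass2 624. At 25 reads the numbers were 29, 37, 163 and 11, and at 100 reads 11, 11, 14 and 0. Grass2 thus passed from more than the grain-fed libraries at low limits to fewer at high ones. The numbers also rested on Grass1: without Grass1 in the rule, 64 genes instead of 32 would be Grain1-only and 76 instead of 42 Grain2-only.

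The comparison of diets over all genes uses the contrast from which the members were chosen, so the calls below are given as a description and nothing is read from them. With limma on log2(value per 1000000 + 1), 71 members passed the filter of a mean of 1 per 1000000, each through the 1 library that reads it. At an adjusted p-value under 0.1, limma called 0 of them lower on grass, beside 0 (0%) of the 10461 genes tested. The unadjusted p-value was under 0.05 for 918 genes, and the adjusted p-values of the members from limma lay between 0.625 and 0.695. On the recovered reads the number of members called differed with the test.

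The likelihood ratio test of edgeR, the kind of test used in the study, called 35 of the 74 members lower on grass, 17 Grain1-only and 18 Grain2-only, beside 0.706% of all 16288 genes called lower. The called member with the fewest reads had 68, and the member with the most reads among those not called had 64. The quasi-likelihood test of edgeR without a filter called 43 members, 21 and 22, beside 1.34% of all genes called lower, of which the fewest reads were 48, against 46 for the highest member not called. DESeq2 gave an adjusted p-value for 53 members and called 10, beside 2.28% of 9025 genes called lower. A member with 55 reads was called by DESeq2 and A2ML1, with 220, was not. Among the named members DESeq2 called SERPINA3, TTR, CAMK1D and PRSS35 and not A2ML1, TLR9 and PLA2G2A, whose adjusted p-values from DESeq2 were 0.331, 0.340 and 0.346. With the filter of edgeR that asks for reads in at least 2 libraries, an alternative chosen after seeing the data, none of the 74 members entered the quasi-likelihood test, and 0 of 9533 genes were called there, while 942 had an unadjusted p-value under 0.05. For each member the group difference rested on a single library, and the likelihood ratio, quasi-likelihood and limma tests differed in whether such a gene passed.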

How the data were processed

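RNA-Seq was run on muscle of 4 steers, 2 per diet. Reads were aligned by the authors to BosTau6 (UMD3.1) using Bowtie, counted per gene with GenomicRanges and tested in edgeR; no version of these tools is stated. The values deposited by the authors are a normalized signal, namely edgeR pseudo-counts, which are not whole numbers and were brought to a common library size group by group. Inverting that step with a common dispersion of 0.605, itself fitted, returned whole reads for 100% of the 13198 and 15519 genes with reads on grain and on grass, at a relative tolerance of 1e-05. Reads on genes per library are given in the text. The inversion and the tests were tested on simulated data. For the tests, genes were changed in both libraries of a diet, at a lower dispersion than the one fitted here. A change in 1 library alone, as in the members, was not simulated.

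The members, the marker lists and the tests were chosen with earlier results of these data known. Diets were compared with limma 3.58.1 (mean-variance trend, pseudocount of 1 per 1000000, mean of at least 1 per 1000000, Benjamini-Hochberg adjustment, threshold 0.1), and on recovered reads with edgeR 4.0.16 and DESeq2 1.42.0 in R 4.3.3. Samples were grouped by the diet in the labels, and p-values measure the spread between these libraries. Symbols came from the study's identifier list and from its log ratios where they match 1 gene to 3 decimals; that list was read as text from a PDF. The RefSeq table used here pairs 0 genes with Ensembl identifiers, so it gave names and the order of neighbouring genes but no printed coordinates, and sequences were not analysed here. The genes to name were the 12 highest of each set, the members on a marker list and those nearest the limit, but of members without a symbol at most 2 per set are named.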

Additional observations from a re-analysis of the deposited data

How the results depend on the processing

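With a lower limit of 10 in place of 25 there were 57 Grain1-only and 71 Grain2-only genes, and with the other libraries allowed up to 3, 69 and 75; with a limit of 50, Grain2-only genes fell to 27 (24 in Grain1). Leaving out 1 other library gave 41 to 64 Grain1-only and 48 to 76 Grain2-only genes, the highest without Grass1. No gene is listed at exactly 0 in the other 3 columns; with 0 recovered reads asked for instead, the counts were 32 and 42, the same as by the rule. With columns rescaled to the same total they were 30 and 37, and with at least 25 recovered reads 29 and 37. For the diets, limma called 0 genes with a pseudocount of 0.5 or 4 and with rescaled columns, and 0 to 0 genes and 0 to 0 members when 1 library was dropped, a fit in which the single library left is taken to have the spread of the other diet. Those reduced fits had from 173 to 2586 genes whose unadjusted p-value was under 0.05. Without a filter limma called 122 genes and no member. The quasi-likelihood test called 289 genes and 43 members, the likelihood ratio test 171 and 35, and DESeq2 293 and 10; the cause was not tested. No paired analysis was possible because the diets share no replicate numbers in the labels.

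Each member was read in 1 library and had 0 reads in the other library of the diet, so its level has no second measurement. Depth limits a member's absence to about 3 reads per library.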

Other observations

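A pair of Grain1-only genes without a symbol held the same number of reads, 120 each in Grain1 and 0 elsewhere. At this level no other Grain1-only gene shared its count, and the remaining equal counts were of 20 reads in Grain1 and between 22 and 72 reads in Grain2. Whether the pair shares reads was not tested.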
